A study of Mus musculus with 12 samples.

Results

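The transcriptome of unexposed mouse nasal tissue was described from the 4 vehicle libraries among the 12 libraries of a study of airborne diesel particles. The libraries were chosen by their label alone, as the columns named for PBS vehicle, and are named vehicle 2, 4, 5 and 6 after the numbers in their names. They came from male C57BL/6 mice, aged 6 weeks by the labels, given PBS and numbered day 10. The 8 libraries from mice given KDP20, the agent of the exposure, were not used here. The labels name nasal tissue and, as the cell type, nasal epithelium, but give no dissection and do not say that each library is a separate animal, so the spread between libraries may be technical in part. RNA was extracted with a column kit and made into libraries with a SMARTER mRNA-Seq kit, and the deposited values are whole counts per gene for 55487 gene rows. A library held from 1993550 to 3227138 counts, and 3 counts, taken here as the limit of detection, corresponded to between 0.930 and 1.50 CPM, that is, counts scaled to a library total of 1000000. At least 1 count was present in 30072 rows, and 25415 rows were at 0 in all 4 libraries, which for a single library allows a level of up to its 3-count value.

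The nasal lining of the mouse is a mosaic. Respiratory epithelium holds secretory, goblet, ciliated and basal cells, olfactory epithelium holds sensory neurons supported by sustentacular cells and Bowman glands, and glands, vessels, bone, cartilage and immune cells lie beneath both. In bulk tissue, fewer cells of a type and less RNA per cell cannot be told apart. Each count table row belongs to a gene on 1 strand of the genome, and whether and how the counting used strand is not stated in any source at hand. The rows were therefore read in 2 ways. The own reading of a gene is the row that carries its name, and the opposite reading is the summed level of the rows whose exons overlap its exons on the other strand by 50 bases or more.

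The overlap between a row and the gene it faces can be seen in the transcript sequences. The stretches below were chosen because the row facing them was far above the gene's own row, and each lies wholly within coding sequence. They are given 5′ to 3′ on the strand of the named gene (GENCODE M21, GRCm38). Capitals mark a stretch of bases that is also covered by an exon of the opposite row. The 20 bases on either side in lower case are the neighbouring bases of the spliced transcript. They were not checked against other exons of the opposite row. Cyp2f2, a cytochrome P450 of secretory cells, is faced by Gm15883 at chr7:27124854-27124987 and at chr7:27129754-27129893. Adcy3, the adenylyl cyclase of odour transduction, is faced by Cenpo at chr12:4196764-4196922. Ebf3, a transcription factor of the olfactory lineage, is faced by Gm45278 at chr7:137200383-137200560, and Krt5, the keratin of basal cells, by the miRNA row Gm44323 at chr15:101710274-101710402.
Cyp2f2, first stretch: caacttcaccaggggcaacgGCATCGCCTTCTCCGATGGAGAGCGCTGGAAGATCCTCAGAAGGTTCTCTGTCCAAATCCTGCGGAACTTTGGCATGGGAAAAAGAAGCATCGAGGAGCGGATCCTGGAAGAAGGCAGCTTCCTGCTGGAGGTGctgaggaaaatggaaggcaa
Cyp2f2, second stretch: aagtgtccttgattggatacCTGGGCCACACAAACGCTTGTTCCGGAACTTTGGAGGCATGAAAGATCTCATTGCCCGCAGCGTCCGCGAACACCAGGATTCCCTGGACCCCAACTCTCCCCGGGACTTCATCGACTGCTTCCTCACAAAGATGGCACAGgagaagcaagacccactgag
Adcy3: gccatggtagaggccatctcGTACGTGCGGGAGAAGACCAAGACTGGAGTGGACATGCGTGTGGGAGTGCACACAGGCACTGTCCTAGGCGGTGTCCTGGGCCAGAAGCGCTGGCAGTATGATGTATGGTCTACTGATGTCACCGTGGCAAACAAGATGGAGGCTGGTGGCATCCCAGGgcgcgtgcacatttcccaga
Ebf3: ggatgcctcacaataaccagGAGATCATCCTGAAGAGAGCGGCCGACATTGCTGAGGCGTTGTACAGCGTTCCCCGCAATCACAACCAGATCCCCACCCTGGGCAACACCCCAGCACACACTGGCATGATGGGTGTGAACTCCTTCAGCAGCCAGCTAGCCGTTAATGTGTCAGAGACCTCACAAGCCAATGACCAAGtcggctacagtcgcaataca
Krt5: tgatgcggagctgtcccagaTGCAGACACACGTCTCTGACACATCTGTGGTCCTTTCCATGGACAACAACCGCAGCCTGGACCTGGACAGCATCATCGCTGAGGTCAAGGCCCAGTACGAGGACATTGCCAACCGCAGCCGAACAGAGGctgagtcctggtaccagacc

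Most counts lay in rows that face a gene on the other strand. Rows with an exon opposite an exon of another gene held 67.2% ± 0.78 of the counts (SD, n = 4), although they were 8380 of the 55487 rows. Rows opposite a protein-coding exon held 57.2% of the counts in vehicle 2, 56.8% in vehicle 4, 60.1% in vehicle 5 and 57.7% in vehicle 6. Vehicle 5 was the highest, and the Wilson 95% interval of any such share, which covers counting error only, was at most 0.0680 percentage points to either side. Of the 5000 rows opposite a protein-coding exon, 70.3% had a mean of 10 CPM or more, against 6.76% of the 40558 rows with no gene on the other strand. Non-coding rows opposite a protein-coding exon alone held 30.6% ± 0.98 of the counts, while the 17137 protein-coding rows with no opposite exon held 14.6% ± 1.03. The 80 ribosomal protein genes, among the most transcribed genes of any tissue, held between 0.107% and 0.144% of the counts in their own rows. The row CT010467.2, which was not found in the annotation used, held 7.25%, 7.40%, 10.1% and 9.87% of the counts in vehicle 2, 4, 5 and 6, and was higher in vehicle 5 and 6 than in the other two. The 37 mitochondrial rows were at 0.

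**Figure D1:**
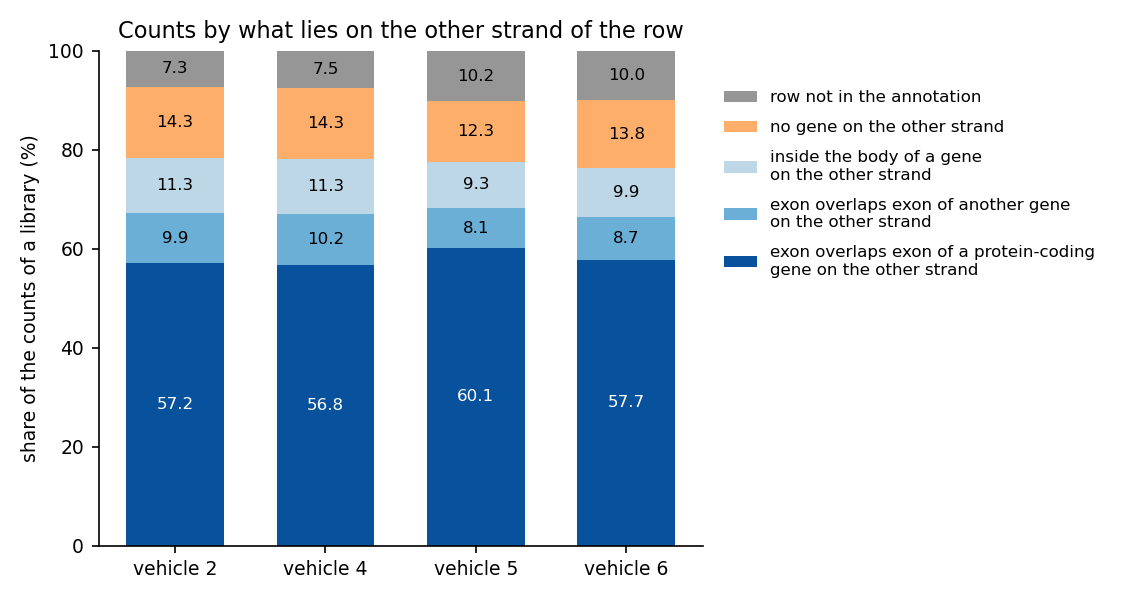
Share of the counts of each vehicle library (vertical axis, percent) in 5 classes of rows, by what lies on the other strand of the row. Rows opposite a protein-coding exon (dark blue) hold between 56.8% and 60.1% in the 4 libraries.

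The 2 readings of a gene were compared within each library per kilobase, the own row over its exons and the opposite rows over the overlapping bases. Of 3938 protein-coding genes with an opposite row and at least 10 CPM in either reading, the opposite reading was above the own reading in all 4 libraries for 3427 genes (87.0%). The own reading was higher in all 4 for 313 genes, and 198 were mixed. Among the 1400 genes whose opposite rows are non-coding and face no other gene, 1325 (94.6%) were higher in the opposite reading in every library. The median share of the opposite reading in the sum of both was 97.9% over the 3938 genes and 99.5% over the 1400. The own share was lowest in vehicle 5, with a median over the 1400 genes of 0.429%, against 0.527% in vehicle 2, 0.550% in vehicle 4 and 0.510% in vehicle 6. Opposite readings include reads that fall in parts of the row beyond the overlap, so their values per kilobase are upper values. An opposite row that is itself a protein-coding gene cannot be assigned to 1 of the 2 genes from these counts. Of all 21974 protein-coding genes, 25.0% had an own row with a mean of 10 CPM or more. Of the 4728 with an opposite row, 73.6% reached 10 CPM and 31.9% reached 100 CPM there, and the counts over gene lists are set against these shares. A list's summed opposite level takes each opposite row once and leaves out rows that are members of the same list.

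**Figure D2:**
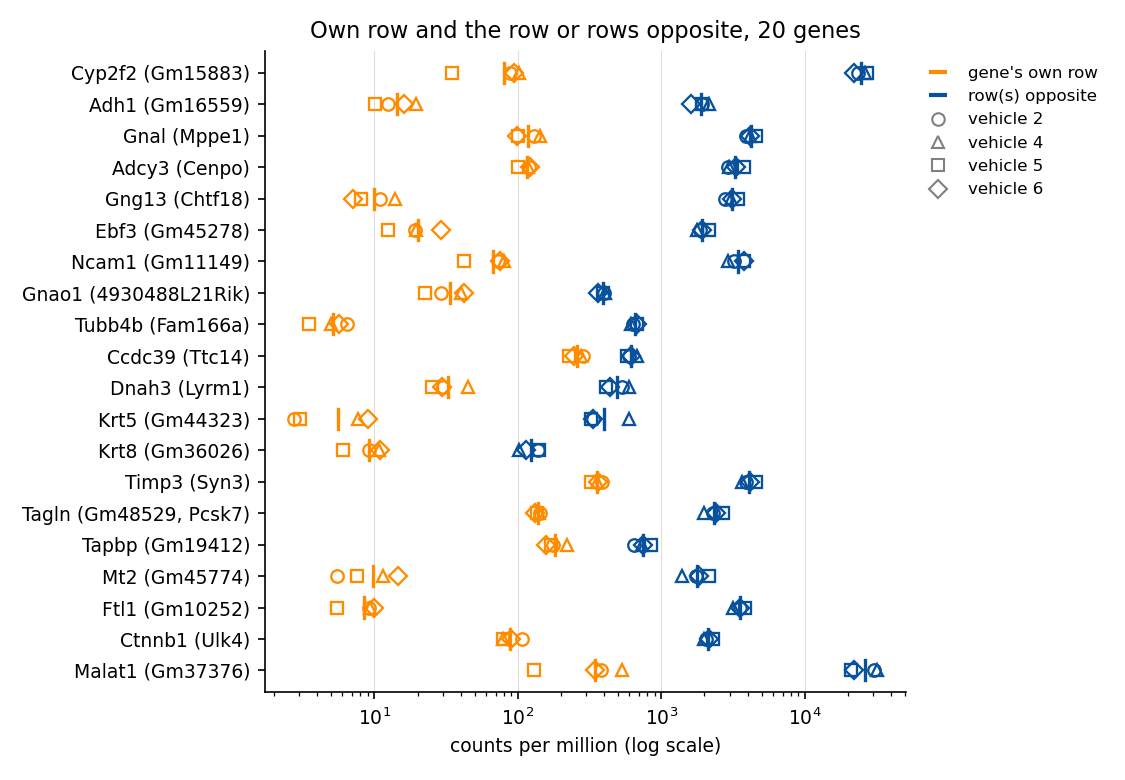
CPM (horizontal log axis) of 20 genes in their own row (orange) and in the row or rows opposite, named in brackets (blue). Symbols are the 4 vehicle libraries and vertical ticks their means. The 20 genes were picked by hand, and for each every blue symbol lies to the right of every orange one. Among 3938 protein-coding genes compared per kilobase, 313 had the higher own reading in all 4 libraries and 198 were mixed.

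The opposite reading of the club cell list rests on Cyp2f2, the 1 of its 22 genes with an opposite row. The row opposite Cyp2f2, Gm15883, reached 23641, 26125, 27276 and 22031 CPM in vehicle 2, 4, 5 and 6, while the Cyp2f2 row itself stood at 88.0, 103, 34.6 and 94.1 CPM. All 4 opposite values were far above all own values, and the own row was lowest in vehicle 5, where the opposite row was highest. Per kilobase the opposite reading of Cyp2f2 was 90395 CPM and the own reading 39.4 CPM. Adh1, an alcohol dehydrogenase that oxidises retinol and ethanol, was read at 1907, 2161, 1927 and 1611 CPM through Gm16559, against a mean of 14.5 CPM in its own row.

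Odorant-binding proteins, the lipocalins that carry odorants through nasal mucus, have no gene on the other strand and could be read only in their own rows. Obp2a stood at 488, 425, 311 and 757 CPM and Obp2b at 263, 204, 166 and 356 CPM in vehicle 2, 4, 5 and 6. Both were lowest in vehicle 5 and highest in vehicle 6. Obp1a, at 66.4, 51.1, 56.2 and 99.3 CPM, was highest in vehicle 6 as well. Bpifa1, a lipid-binding protein of nasal secretions, had a mean of 43.1 CPM. Scgb1a1, the defining secretoglobin of club cells, was at 0 in all 4 libraries, and Scgb3a1 had a mean of 3.22 CPM. The club cell list had 7 of 22 own rows at 10 CPM or more (31.8%, against 25.0% of all protein-coding genes) and 4 at 0. The 3 genes of the gland list with an opposite row had under 1 CPM there, and 18 of its 40 own rows reached 10 CPM (45.0%, against 25.0%). Cyp2a5, a cytochrome P450 of the olfactory mucosa, stood at 218 ± 38.1 CPM (SD, n = 4).

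The gel-forming mucins Muc5b, Muc6, Muc5ac, Muc2 and Muc19 have no opposite row and could be read only in their own rows. Muc2 had a mean of 9.20 CPM there, and Muc19 was at 0 in all 4 libraries. Muc5b stood at 350, 445, 328 and 322 CPM, and Muc6 at 568, 488, 371 and 479 CPM, in vehicle 2, 4, 5 and 6. Muc5ac was more spread, at 109, 190, 58.7 and 88.0 CPM, with vehicle 4 the highest and vehicle 5 the lowest. Of the 23 goblet cell genes, 5 had an own row at 10 CPM or more (21.7%, against 25.0% of all protein-coding genes). All 4 of those with an opposite row reached 10 CPM there, where 73.6% of all genes did, the largest being Muc4, a membrane mucin, through Muc20 at 270 ± 95.7 CPM. Muc20 is itself a mucin gene, so this row carries 1 value for 2 possible sources. Tff1, a trefoil peptide secreted with mucus, was read through Gm15318 at 36.2, 54.5, 24.1 and 22.7 CPM, again highest in vehicle 4.

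Of the olfactory transduction genes, 3 have an opposite row, and all 3 were high in that reading. Gnal encodes the G protein alpha subunit that couples odorant receptors to the cyclase, Adcy3 the cyclase itself, and Gng13 a G protein gamma subunit. The row opposite Gnal, Mppe1, stood at 3917, 4138, 4602 and 4122 CPM in vehicle 2, 4, 5 and 6. The row opposite Adcy3, Cenpo, stood at 2896, 2972, 3748 and 3334 CPM, and the row opposite Gng13, Chtf18, at 2788, 3062, 3443 and 3132 CPM. Vehicle 5 was the highest and vehicle 2 the lowest for all 3 rows. The own rows of Gnal, Adcy3 and Gng13 had means of 118, 115 and 10.01 CPM. Mppe1, Cenpo and Chtf18 are themselves protein-coding genes, and Cenpo also faces Ptrhd1, so these 3 rows cannot be assigned to a single gene. Of the 30 genes listed for mature olfactory sensory neurons, 6 have an opposite row. All 6 were at 10 CPM or more there, where 73.6% of all genes were, with a summed level between 10601 and 13083 CPM.

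The transcription factors of the Ebf family, which take part in olfactory neuron differentiation, were read in the same way. Ebf3 stood at 1866, 1781, 2149 and 1925 CPM through Gm45278, and Ebf2 at 878, 915, 1151 and 1089 CPM through Gm10860. Both were highest in vehicle 5. Ebf1, which has no gene on the other strand, was at 87.5, 88.3, 89.8 and 89.4 CPM in its own row. Its coefficient of variation of 1.17% was 1 of the smallest among rows at 50 CPM or more, but lay below the 7.01% that counting alone gives. Ncam1, the neural cell adhesion molecule, stood at 3229, 2918, 3801 and 3782 CPM through Gm11149. Atf5, a stress-responsive transcription factor expressed in developing olfactory neurons, had 289 ± 34.4 CPM through Il4i1 and Nup62, which are both protein-coding genes.

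The 24 olfactory neuron genes without an opposite row had a median of 13.3 CPM in their own rows, and 14 reached 10 CPM (25.0% of all protein-coding genes did). Kirrel3, an adhesion molecule of olfactory axons, was the highest at 118, 125, 106 and 123 CPM in vehicle 2, 4, 5 and 6, and Ebf1 followed. Omp, the olfactory marker protein that defines mature sensory neurons, was at 27.5, 41.8, 13.0 and 38.3 CPM in vehicle 2, 4, 5 and 6, lowest in vehicle 5. Cnga2, the transduction channel subunit, had a mean of 2.11 CPM and Gap43, a growth cone protein of immature neurons, 2.63 CPM. Of 1410 olfactory receptor rows, 436 had at least 1 count and 11 reached a mean of 10 CPM. Together they summed to 548, 621, 538 and 561 CPM. The vomeronasal receptors, 593 rows, summed to between 193 and 233 CPM, with 7 rows at 10 CPM or more, and none of the 16 trace amine receptor rows reached 1 CPM. Olfr615 was the highest receptor row, at 56.8, 54.2, 62.7 and 60.1 CPM, and it lies opposite Olfr616, so its reads may belong to either. These receptor rows were named after their values were seen. Gnao1, the G protein of vomeronasal neurons and other neurons, was read at 389 ± 18.8 CPM through 4930488L21Rik.

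Ebf proteins bind a palindromic element, and the promoters of the olfactory list were searched for its core, CCCNNGGG, which reads the same on both strands. In the 250 bases before the start site, 10 of the 23 olfactory neuron genes with a RefSeq promoter held it (43.5%), against 3629 of 27025 genes in the table (13.4%) and 8 of 42 motile cilium genes (19.05%). The match describes the sequence and is not a binding site. The promoter of Gng13 is shown because it holds the core and is 1 of the 3 transduction genes described above (RefSeq, GRCm38.p6, plus strand, chr17:25717017-25717144), with the match in capitals.
Gng13 promoter: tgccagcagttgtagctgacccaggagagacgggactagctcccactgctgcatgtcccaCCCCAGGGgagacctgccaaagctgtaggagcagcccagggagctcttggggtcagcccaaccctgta

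Motile cilium genes were high in the opposite reading and mixed in their own rows. All 13 with an opposite row were at 10 CPM or more in that reading, where 73.6% of all genes were, with a summed level of 3518, 3810, 3315 and 3413 CPM in vehicle 2, 4, 5 and 6, highest in vehicle 4. Tubb4b, the tubulin of axonemes, stood at 633, 614, 681 and 678 CPM through Fam166a, against a mean of 5.14 CPM in its own row. Dnah3, an axonemal dynein heavy chain, stood at 529, 598, 413 and 440 CPM through Lyrm1, and Cfap65, a cilium-associated protein, at 365, 408, 283 and 326 CPM through Gm15841. These 2 rows were highest in vehicle 4 and lowest in vehicle 5, which Tubb4b was not. Ccdc39, which sets the spacing of dynein arms, was at 618 ± 45.6 CPM through Ttc14 and at 259 ± 25.4 CPM in its own row. Fam166a, Lyrm1 and Ttc14 are themselves protein-coding genes, so these rows cannot be assigned to a single gene. Dnah9, another dynein heavy chain, was at 316 ± 30.2 CPM through Gm12296. In own rows, 14 of the 50 genes found reached 10 CPM (28.0%, against 25.0% of all genes), 11 were below 1 CPM, and 3 of these, Ccno, Armc4 and Cetn2, were at 0. Foxj1, the master transcription factor of motile ciliogenesis, was 1 of the 14 that reached 10 CPM, at 35.7, 38.1, 38.1 and 25.1 CPM.

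The rows opposite the keratin genes Krt5 and Krt6a varied between libraries. The row opposite Krt5, Gm44323, stood at 336, 592, 322 and 333 CPM in vehicle 2, 4, 5 and 6, with vehicle 4 above the other three, and the Krt5 row itself had a mean of 5.62 CPM. Krt6a, a keratin of stressed and squamous epithelium, was read at 153, 205, 59.2 and 33.1 CPM, so that vehicle 2 and 4 were high and vehicle 5 and 6 low. Dsp, the desmosomal plaque protein, was more even at 174, 137, 177 and 157 CPM, as was the own row of Krt10, a keratin of cornifying epithelium, at 90.3, 108, 98.8 and 91.7 CPM. Of 38 basal and squamous genes, 8 own rows reached 10 CPM (21.1%, against 25.0% of all protein-coding genes). Of the 7 with an opposite row, 5 reached 10 CPM there (71.4%, against 73.6%). Krt8, a keratin of simple epithelium and sustentacular cells, was read at 124 ± 18.7 CPM through Gm36026. Of the 20 tuft and chemosensory cell genes, 11 were below 1 CPM in their own rows, Pou2f3, Gnat3, Chat and Il25 among them, and 6 reached 10 CPM (30.0%, against 25.0%). In the opposite reading 4 of 5 reached 10 CPM (80.0%, against 73.6%). Dclk1, a tuft cell kinase, was read at 147 ± 29.5 CPM, Itpr3, the calcium channel of taste-like transduction, at 112 ± 16.1 CPM, and Trpm5, their cation channel, at 26.2 ± 4.56 CPM through Tssc4, which is itself protein-coding.

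Of the 24 antigen presentation genes, 11 had an own row at 10 CPM or more (45.8%, against 25.0% of all genes) and 5 were at 0. Of the 10 with an opposite row, 7 were at 10 CPM or more there (70.0%, against 73.6%), with a sum of 1084, 1458, 1313 and 1247 CPM. Tapbp, which loads peptides onto class I molecules, stood at 646, 728, 844 and 751 CPM through Gm19412, and Tap2, the peptide transporter, at 226, 330, 254 and 244 CPM. H2-Q4, a class Ib gene of a family of near-identical copies, was at 102, 213, 110 and 123 CPM, and is uncertain for that reason. Tap2 and H2-Q4 were highest in vehicle 4, Tapbp in vehicle 5. The opposite reading of the neutrophil list was almost only Plppr3, a protein-coding row opposite 159 bases of the protease gene Prtn3, at 520 ± 25.1 CPM, and Mpo, the myeloperoxidase, was at 3.21, 20.5, 6.02 and 20.8 CPM through Gm11505. Own rows of the list summed to 584 ± 82.1 CPM, mostly Hdc, the histidine decarboxylase, at 192 ± 35.7 CPM, Mmp9, a gelatinase, at 170 ± 19.5 CPM, and Ltf. Of these 30 rows, 5 reached 10 CPM (16.7%, against 25.0% of all protein-coding genes) and 12 were at 0. Csf1r, the macrophage growth factor receptor, was 1 of the 313 genes read more in their own row per kilobase, at 200 ± 13.6 CPM, than through its opposite row Hmgxb3, at 12.4 ± 2.91 CPM; the Csf1r row is also the opposite reading of Hmgxb3, a protein-coding gene. Lymphocyte genes with an opposite row summed to between 93.2 and 177 CPM, and 5 of 10 reached 10 CPM (73.6% of all genes did). The own rows of the whole list summed to between 727 and 841 CPM, with Cd247, a signalling chain of T cell receptors, at 393 ± 32.9 CPM and Foxp3, the regulatory T cell factor, at 126 ± 14.5 CPM. Of these 51 rows, 7 reached 10 CPM (13.7%, against 25.0%) and 19 were at 0. Cd247 and Foxp3 both face other genes. Cd3e, a chain of the T cell receptor complex, was read at 11.0, 24.5, 7.52 and 8.98 CPM. No gene of the mast cell, basophil and eosinophil list has an opposite row. Hdc, which is also on this list, and Il5ra, a receptor chain for interleukin 5, at 105 ± 8.19 CPM, were the 2 of 20 own rows that reached 10 CPM, and Epx, the eosinophil peroxidase, was at 1.69 CPM.

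In the matrix and vessel wall lists, single genes carried most of the opposite level. Timp3, a matrix-bound protease inhibitor, stood at 3878, 3637, 4608 and 4128 CPM through Syn3, and Tagln, an actin-binding protein of smooth muscle, at 2293, 1983, 2687 and 2390 CPM through Gm48529 and Pcsk7. Both were highest in vehicle 5 and lowest in vehicle 4. Syn3 is itself a protein-coding gene. Timp3 accounted for 4063 of the mean 5040 CPM of the matrix list and Tagln for 2338 of the 2657 CPM of the endothelium and vessel wall list, whose median member was at 17.7 CPM. Fn1, fibronectin, was read at 218 ± 39.9 CPM, and Col5a1, a fibrillar collagen, at 194, 132, 214 and 277 CPM, highest in vehicle 6. Own rows of the type I collagen genes were highest in vehicle 6 too. Col1a1 stood at 131, 138, 112 and 275 CPM, and Col1a2 at 64.1, 42.5, 33.1 and 97.4 CPM.

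The bone and cartilage list differed between its readings. The row opposite Acp5, the acid phosphatase of osteoclasts, stood at 287, 231, 373 and 507 CPM in vehicle 2, 4, 5 and 6, while the Acp5 row itself had a mean of 1.54 CPM. The 6 of 39 members with an opposite row summed to 564, 468, 627 and 827 CPM, most of it the row opposite Acp5, and their mean of 622 CPM was 267 CPM with an overlap of 200 bases. Vehicle 6 was the highest and vehicle 4 the lowest in both. The own rows of the list summed to 732, 719, 633 and 687 CPM, highest in vehicle 2. Col10a1, the collagen of hypertrophic cartilage, was at 225, 216, 184 and 172 CPM, lowest in vehicle 6. Runx2, the osteoblast master regulator, did not follow, at 142, 113, 101 and 127 CPM through Runx2os1. The opposite rows of skeletal muscle genes were high in vehicle 4. The list of 39 muscle genes summed to 68.7, 355, 64.2 and 111 CPM over its 17 members with an opposite row, a mean of 150 CPM that falls to 81.2 CPM without vehicle 4. Atp2a1, the calcium pump of fast muscle, was read through Rabep2 at 17.9, 152, 25.6 and 45.9 CPM, Ckm, the muscle creatine kinase, at 2.29, 46.2, 8.53 and 8.98 CPM, and Ttn, the giant sarcomere protein, at 5.04, 36.3, 2.51 and 8.04 CPM. Rabep2 is itself a protein-coding gene. Of the 17 members, 5 reached a mean of 10 CPM (29.4%, against 73.6% of all genes with an opposite row). The own rows of all 39 members summed to 611, 619, 550 and 558 CPM and were more even. The 2 sums cover different numbers of genes and are not divided by length, so their heights cannot be compared. The own row of Ttn, a gene of 116825 exon bases, stood at 165, 158, 156 and 171 CPM. That of Neb, another giant sarcomere protein, stood at 153, 160, 139 and 138 CPM. The own row of Atp2a1 stood at 115, 121, 99.8 and 86.5 CPM, and is also the opposite reading of Rabep2. Vehicle 4 did not stand apart in these 3 own rows.

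**Figure D3:**
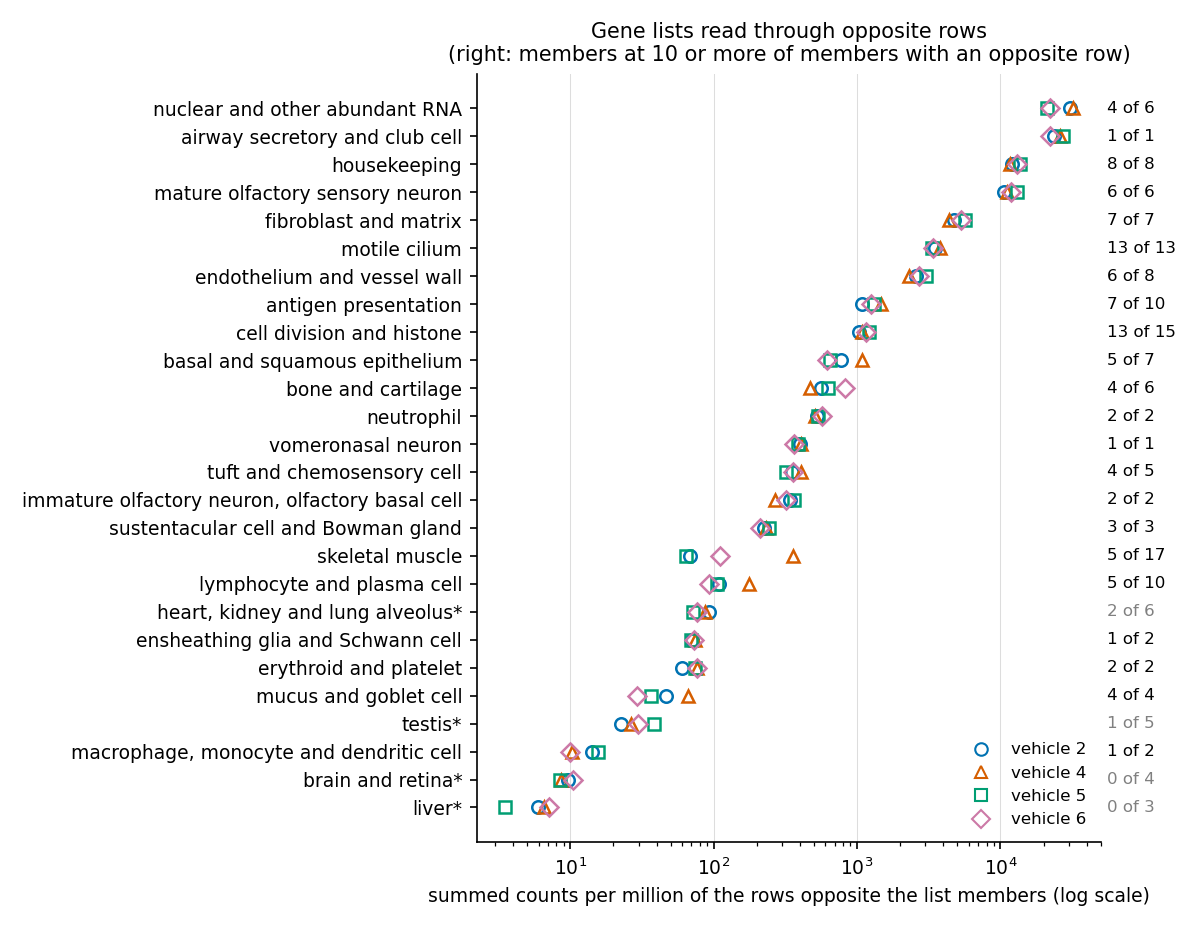
Summed CPM (horizontal log axis) of the rows opposite the members of 26 gene lists, 1 symbol per vehicle library, with the number of members at 10 CPM or more on the right. The 4 lists of tissues other than nasal tissue (asterisk) lie below 100 CPM, as do some lists of nasal cell types, and skeletal muscle stands out in vehicle 4.

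Lists for tissues other than nasal tissue were read in the same way, for comparison. They hold 99 rows of liver, gut, testis, heart, kidney, lung alveolus, brain and retina genes, of which 18 have an opposite row, 3 reached 10 CPM there and none reached 100 CPM. Over the other lists, 140 of 715 entries have an opposite row, 104 reached 10 CPM (74.3%) and 49 reached 100 CPM (35.0%), close to the 73.6% and 31.9% of all protein-coding genes. A gene on several of these lists, such as Obp2a or Hdc, is counted once in each. In own rows 17 of 99 against 213 of 715 were at 10 CPM or more, that is 17.2% and 29.8%, with 25.0% over all genes. Aqp4, at 16.1 CPM in its own row, is on both the brain and retina list and the sustentacular list and counts on both sides. Some own rows of the lists for other tissues were high. Grin1, a glutamate receptor subunit of brain, stood at 481, 504, 383 and 435 CPM, Gapdhs, a sperm glycolytic enzyme, at 249, 255, 257 and 260 CPM, and Sycp3, a protein of meiotic chromosomes, at 205, 184, 210 and 207 CPM. All 3 rows have a gene on the other strand, which is Grin1os for Grin1, Tmem147os and Gm26935 for Gapdhs, and Chpt1 for Sycp3.

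Housekeeping genes had a median of 15.0 CPM in their own rows, with 18 of 34 at 10 CPM or more (52.9%, against 25.0% of all protein-coding genes). Actb, cytoplasmic actin, was at 35.7, 67.2, 40.1 and 63.8 CPM and Eef1a1, the elongation factor, had a mean of 45.0 CPM; neither has a gene on the other strand. Gapdh, at 133 ± 12.8 CPM, lies opposite Iffo1. All 8 housekeeping genes with an opposite row reached 10 CPM there, where 73.6% of all genes did. Gnas, the stimulatory G protein, stood at 7547, 7541, 8802 and 8372 CPM through Gm20721 and Gnasas1, and Ftl1, the ferritin light chain, at 3524, 3181, 3845 and 3555 CPM through Gm10252. Ctnnb1, beta-catenin, stood at 2043, 1972, 2305 and 2157 CPM through Ulk4, and Mt2, a metallothionein, at 1742, 1397, 2153 and 1845 CPM through Gm45774. The rows Gm20721 and Ulk4 are themselves protein-coding. All 4 readings were highest in vehicle 5 and lowest in vehicle 4, for Gnas only just below vehicle 2.

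Some nuclear RNAs had the opposite order of libraries. The row opposite Malat1, a nuclear long non-coding RNA, is Gm37376 and stood at 30578, 31751, 21051 and 21858 CPM in vehicle 2, 4, 5 and 6, and Malat1 itself at 377, 535, 129 and 346 CPM. Kcnq1ot1, an imprinted nuclear RNA, stood at 3973, 4367, 2785 and 2957 CPM in its own row, and Rn7sk, the 7SK small nuclear RNA, at 216, 249, 64.2 and 221 CPM. Vehicle 4 was the highest and vehicle 5 the lowest for all 4 rows. Snhg14, another long nuclear RNA, was even, at 726, 693, 709 and 707 CPM. Xist, the X-inactivation RNA, was at 61.8, 60.1, 43.1 and 40.7 CPM in its own row, in libraries labelled male, and at a mean of 1.84 CPM in the opposite reading. Its antisense partner Tsix had a mean of 1.65 CPM in its own row and 51.4 CPM through the Xist row, whose reads may belong to either.

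Rows without an opposite exon had their own leading members. BC051076, an antisense row that overlaps the body of 1700066N21Rik, stood at 3098, 1661, 2630 and 3709 CPM, lowest in vehicle 4. Fam57b, a protein of ceramide synthesis, stood at 1131, 1101, 1453 and 1367 CPM, and Steap2, a metalloreductase, at 742, 788, 924 and 846 CPM, and neither overlaps a gene on the other strand. P2ry14, a receptor for UDP-glucose, was even at 1021, 1051, 965 and 1032 CPM and lies inside the body of Med12l on the other strand. The protein-coding rows Hexim1, Rasa2, Fbxw2, Megf11, Rac3 and Cdk13 had means between 420 and 574 CPM.

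The spread between the 4 libraries was measured over expressed rows and by level. Pearson correlations of log2 CPM across genes lay between 0.960 and 0.968 over the 6 pairs; they are across genes, which are not independent replicates. The variance between 2 libraries was 2.96 to 5.99 times the variance of counting. The common biological coefficient of variation, the edgeR estimate of spread beyond counting, was 0.157 over 10428 rows. The coefficient of variation of CPM had a median of 21.6% for rows of 10 to 50 CPM, where counting alone gives 14.6%, and 12.3% for 50 to 200 CPM, where it gives 7.06%. For rows of 200 to 1000 CPM the median was 8.30% against 3.66%, and for the 68 rows of 1000 CPM or more 9.07% against 1.68%. Rows opposite a protein-coding exon had a median of 10.2% at 50 CPM or more, and rows with no gene on the other strand 12.7%.

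**Figure D4:**
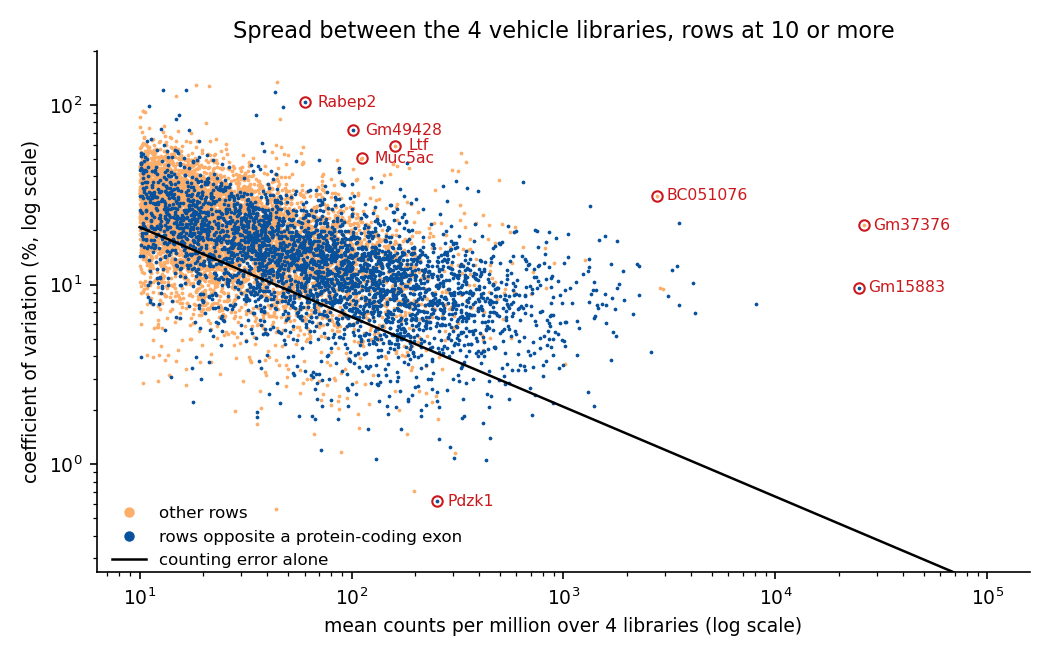
Coefficient of variation over the 4 vehicle libraries (vertical log axis, percent) against mean CPM (horizontal log axis) for annotated rows at 10 CPM or more. The line is counting error alone, and above 1000 CPM all rows lie above it.

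The most even rows were Pdzk1 at 253, 251, 255 and 253 CPM, Prox2 at 198, 200, 197 and 196 CPM, and Yipf2 at 424, 433, 428 and 433 CPM. Their coefficients of variation of 0.623%, 0.711% and 1.06% were below those of counting alone, 4.15%, 4.69% and 3.18%, so these counts do not resolve their order. Prox2 faces the antisense gene Prox2os, and Pdzk1 and Yipf2 face protein-coding genes.

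The least even rows were Rabep2, opposite Atp2a1, with 103%, Gm49428, opposite Krt6a, with 72.2%, and Ltf, the iron-binding lactoferrin of glands and neutrophils, with 59.3%. Ltf stood at 140, 286, 54.7 and 163 CPM. Fcamr, an immunoglobulin receptor, stood at 54.5, 101, 50.2 and 26.0 CPM, and Gtf2ird2, the row opposite the neutrophil oxidase gene Ncf1, at 40.8, 119, 50.2 and 72.4 CPM. Vehicle 4 was the highest in all 5 rows. Gm15879 and Trap1, both opposite the gland nuclease gene Dnase1, were highest in vehicle 5, at 104, 128, 297 and 197 CPM and at 28.4, 45.6, 91.3 and 53.9 CPM. Of 3504 rows at 50 CPM or more, those at least 2-fold above the median of the other 3 libraries numbered 2 in vehicle 2, 13 in vehicle 4, 3 in vehicle 5 and 5 in vehicle 6. Those at least 2-fold below numbered 2, 4, 20 and 3. The 20 low rows of vehicle 5 included, by name chosen after their values were seen, the own rows of Malat1, Cyp2f2, Rn7sk, Ltf, Dmbt1, a mucosal glycoprotein, and Stoml3, a membrane protein of olfactory neurons, at 62.3, 85.5, 20.1 and 66.7 CPM. Vehicle 5 also had the lowest own share given above, whose part in these low rows was not tested. The first principal component of log2 CPM, 41.1% of the variance, placed vehicle 4 at 21.2 and vehicle 5 at -25.3, with vehicle 2 at 11.0 and vehicle 6 at -6.96.

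**Figure D5:**
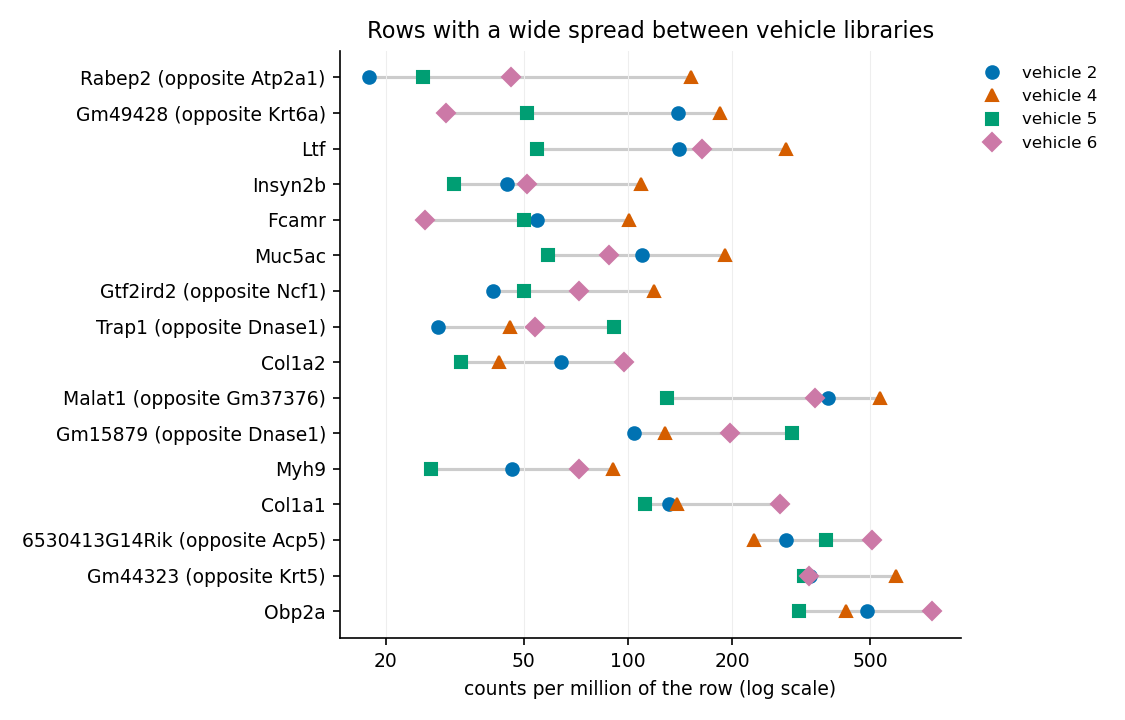
CPM (horizontal log axis) of 16 rows with a wide spread, 1 symbol per vehicle library. Vehicle 4 is the highest in Rabep2, Gm49428, Ltf and Gm44323, and vehicle 6 in Col1a1, Col1a2, Obp2a and the row opposite Acp5.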

How the data were processed

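RNA-seq of mouse nasal tissue was analysed in the 4 vehicle libraries, grouped by their treatment label. The values are raw counts per gene deposited by the authors. Per the submitters' processing notes, FastQC, Trim Galore, STAR and HTSeq were used with the mm10 build; they name no versions, annotation release, strand setting or counting mode, all not given in the sources used here. Counts were divided by the library total and scaled to CPM, with no pseudocount; log2 CPM for correlations and the principal component used an edgeR prior count of 2. Library totals of 1993550 to 3227138 limit the precision, and a floor of 3 counts equals 0.930 to 1.50 CPM.

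Rows were matched by gene identifier to GENCODE M21 (GRCm38), which held 55227 of the 55487 rows; 260 were not found. Exon overlaps of 50 bases or more on opposite strands came from bedtools 2.31.1. Tables were handled in Python 3.11.15 with pandas 2.3.3, and spread was estimated with edgeR 4.0.16 in R 4.3.3 (intercept only, filterByExpr, TMM). DESeq2 1.42.0 gave alternative size factors. The strand reading and the spread estimate were tested on simulated data. There is 1 group, so no test between groups was made. Dixon's criterion was used only to flag values for a closer look.

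The gene lists (30 lists) and comparisons were chosen with earlier results of these data known. Named genes are the 25 rows with the highest mean CPM, the 20 highest without an opposite exon, the 20 highest opposite a protein-coding gene, up to 4 members per list in each reading at 10 CPM or more, the 12 with the largest and the 12 with the smallest coefficient of variation at 50 CPM or more, and 15 sentinel genes; the text names part of them, and some that the rule names are not reported here. Genes named outside this rule, chosen after their values were seen, are Scgb3a1, Cnga2, Gap43, Epx, Stoml3, Muc2, Muc19, Ccno, Armc4, Cetn2, Pou2f3, Gnat3, Chat, Il25, Aqp4 and the receptor rows. Alternatives were other overlaps, levels, scalings and filters, and leaving out each library.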

Additional observations from a re-analysis of the deposited data

Results flagged for a closer look

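Of 318 list levels and named values examined, 13 (4.09%) had 1 library far from the other 3, relative to the range of the 4; chance gives about 1 in 20. In vehicle 4 these were the rows opposite the skeletal muscle list at 355 CPM, against 64.2 to 111 CPM in the others, with Ckm at 46.2 CPM and Ttn at 36.3 CPM in the opposite reading. The row opposite Krt5 at 592 CPM, Rps6kb2 opposite Ptprcap, a lymphocyte membrane protein, at 70.7 CPM, and the own row of Ddx4, a germ cell helicase, at 33.2 CPM were also high in vehicle 4. In vehicle 6 the own row of Col1a1 at 275 CPM was high.

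In vehicle 5 the own rows of Adcy3 at 101 CPM and of Itgb4, the integrin of hemidesmosomes, at 57.2 CPM were low. There the own row of Cnp, a myelin enzyme, at 171 CPM and the rows opposite Myh7, a cardiac and slow muscle myosin, at 20.6 CPM were high. In vehicle 2 the own row of Atf5 at 43.1 CPM was low, and the own rows of the pancreas, stomach and intestine list were high at 20.6 CPM, against 16.6 to 17.1 CPM in the others.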

How the results depend on the processing

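The share of counts in rows with an opposite exon, 67.2%, was 69.0% with an overlap of 1 base, 56.0% with 200 bases and 73.5% without the row CT010467.2, and 66.8% to 67.4% when 1 library was left out. The 3427 genes read more in the opposite reading numbered 2261 of 2667 with an overlap of 200 bases and 1325 of 1400 with unshared non-coding opposite rows, and 3428 to 3460 with 1 library left out. Without division by length they were 2556 of 3938 (64.9%). The common biological coefficient of variation of 0.157 was 0.203 with no filter, 0.127 at a mean of 50 CPM or more, and 0.143 to 0.168 without 1 library. It was 0.162 with plain library totals.

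TMM and DESeq2 scaling moved none of the 54 list levels or 212 named values by more than 1 SD. Leaving out 1 library cannot do so by construction, but the skeletal muscle level rests on vehicle 4 (150 CPM with it, 81.2 CPM without). Totals without CT010467.2 raised 16 list levels by more than 1 SD. In opposite rows these were mature olfactory neuron 12794, housekeeping 13862, motile cilium 3846, cell division 1228, neutrophil 584, vomeronasal 426, sustentacular 249 and glia 79.0 CPM. In own rows they were lymphocyte 871, bone 758, antigen presentation 755, muscle 640, testis 636, macrophage 346, glia 248 and immature olfactory neuron 222 CPM. An overlap of 1 base gave 414 CPM for tuft, 161 CPM for lymphocyte and 116 CPM for erythroid opposite rows. An overlap of 200 bases, which drops opposite rows, gave 2486 CPM for motile cilium, 839 for cell division, 351 for basal epithelium, 267 for bone, 138 for tuft, 69.5 for lymphocyte, 65.6 for sustentacular, 35.2 for immature olfactory neuron, 14.9 for testis, 12.6 for neutrophil and 8.14 for glia. No paired analysis was possible because the libraries form 1 group. Depth limits readings near 1 CPM, and genes without an opposite row, such as Omp, Foxj1 and the odorant-binding proteins, have only 1 reading.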
